A study of Homo sapiens with 6 samples.

Results

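The plasma cell identity genes described here are 10 genes that mark antibody-secreting cells: the transcription factor genes IRF4, PRDM1 and XBP1, the elongation factor gene ELL2, the surface marker genes SDC1, CD38, TNFRSF17 and SLAMF7, and the secretory genes FKBP11 and MZB1. They were taken by symbol from the annotation of a human Illumina bead array, where 17 of 47323 probes belong to them. All 10 are among the 10456 genes with a symbol that were measured, and 14 of their 17 probes passed the filter on dim probes. The arrays came from BC1, BCP1 and BCBL1, which are 3 established human lines of primary effusion lymphoma, a B cell cancer of body cavities that carries Kaposi sarcoma-associated herpesvirus. BC1 is known to carry Epstein-Barr virus as well, and the other lines are not. Each line was grown in RPMI medium with serum and received either vehicle, which the labels do not specify further, or 3-AP (triapine), an inhibitor of ribonucleotide reductase, at 2.5 µM for 48 h. That gave 6 arrays, 3 with vehicle and 3 with 3-AP, and 1 culture per line and condition. RNA came from whole cultures, so fewer cells that express a gene and less of its RNA per cell cannot be told apart. The study compared each treated culture with the vehicle culture of its own line.

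When a B cell becomes a plasma cell, IRF4 and PRDM1 switch on the plasma cell programme and silence the B cell programme, and XBP1 enlarges the endoplasmic reticulum for antibody secretion. ELL2 steers immunoglobulin heavy chain transcripts toward their secreted form. SDC1 (syndecan-1), CD38 (an ectoenzyme that consumes NAD), TNFRSF17 (BCMA, a receptor for survival ligands) and SLAMF7 stand on the surface of plasma cells and are used to identify or target them. FKBP11 is a prolyl isomerase of secretory cells and MZB1 an endoplasmic reticulum protein that assists antibody assembly. Primary effusion lymphoma is known for a plasmablast-like profile with few B cell surface markers.

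Several features of the arrays bear on every value below. Levels are log2 intensities after background subtraction and quantile normalization across the 6 arrays, and 1 probe stands for each gene. Across 14627 features, which are not independent replicates, Pearson's r was 0.990 between the vehicle arrays labelled BCBL1 and BCP1. Only 11 features differed at least 4-fold between these arrays, against 620 between BCP1 and BC1. Line differences are therefore mostly differences of BC1 from a similar pair, and the members that passed are also given without BCP1. The BCP1 vehicle array was less close to the 3-AP array of its own line, with r = 0.981 and 42 features at least 4-fold apart. Between the 3-AP arrays of BCP1 and BCBL1, 12 features were. The tests for 3-AP treat the 3 pairs as independent, and that was not tested. On the 4 arrays of BCBL1 and BC1, which have their own detection p-values, 37.0% to 39.2% of probes were detected. The number of arrays limits the precision of every comparison.

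All but MZB1 of the 10 genes were above background throughout. That is, 9 were detected on all 6 arrays, and MZB1 on 4. Of 20 other plasma cell genes, 14 were measured. JCHAIN, CD27, POU2AF1, TNFRSF13B and BHLHA15 were detected on no array and DERL3 on 1. Among B cell genes PAX5, EBF1, BLK and CXCR5 were detected on none. Of 9 T and NK cell markers on the array 6 were detected on none, among them CD3D and CD3E, and CD3G on 1. Of 9 myeloid markers, ITGAM and S100A9 were detected on none and CD14 on 2, while CD68, LYZ and AIF1 were detected on all 6. Of the 4 measured myeloid markers, CD68, LYZ and AIF1 passed neither between lines, where 20.3% of all features did, nor for 3-AP, where 0.342% did. FCN1 was above background on the 3 treated arrays and on no vehicle array. It was thus kept by the filter only through the treated group, and no test of it is given.

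The promoters of 4 members are shown first. Those of XBP1 and CD38 are given because the level of these genes differed between lines. FKBP11 and MZB1 are secretory genes that passed neither between lines nor for 3-AP. Their promoters are given because they hold the core letters bound by XBP1. Each runs 5′ to 3′ from 250 bases before to 50 after a RefSeq start in GRCh38.p14, and 7 of the 10 members had an entry. Capitals mark the motifs searched on both strands, which were ACGTG (the XBP1 core), CCACG (a part of the ER stress element), GAAAGNG (the PRDM1 core), the interferon-stimulated response element (GAAA repeated after 2 bases) and the ETS-IRF composite element (GGAA, 2 bases, then GAAA). The XBP1 sequence, the upstream one of its 2 entries, is chr22:28800520-28800819 on the minus strand. The other XBP1 entry holds CCACG but not ACGTG. The CD38 sequence is chr4:15778078-15778377 on the plus strand. The FKBP11 sequence, the downstream one of its 2 entries, is chr12:48924939-48925238 on the minus strand, and MZB1 is chr5:139389864-139390163 on the minus strand.
XBP1: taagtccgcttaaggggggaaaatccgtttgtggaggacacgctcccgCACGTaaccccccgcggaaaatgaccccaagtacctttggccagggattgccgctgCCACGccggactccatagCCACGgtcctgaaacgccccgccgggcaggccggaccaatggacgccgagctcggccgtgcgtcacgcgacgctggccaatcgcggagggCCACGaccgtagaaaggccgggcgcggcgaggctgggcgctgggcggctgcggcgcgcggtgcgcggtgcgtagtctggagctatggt
CD38: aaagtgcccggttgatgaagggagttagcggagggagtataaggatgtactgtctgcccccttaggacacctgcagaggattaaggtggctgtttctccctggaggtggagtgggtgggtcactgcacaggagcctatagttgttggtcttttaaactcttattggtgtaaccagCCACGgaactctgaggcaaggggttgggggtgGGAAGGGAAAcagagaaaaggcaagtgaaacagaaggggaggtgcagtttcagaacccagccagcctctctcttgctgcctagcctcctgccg
FKBP11: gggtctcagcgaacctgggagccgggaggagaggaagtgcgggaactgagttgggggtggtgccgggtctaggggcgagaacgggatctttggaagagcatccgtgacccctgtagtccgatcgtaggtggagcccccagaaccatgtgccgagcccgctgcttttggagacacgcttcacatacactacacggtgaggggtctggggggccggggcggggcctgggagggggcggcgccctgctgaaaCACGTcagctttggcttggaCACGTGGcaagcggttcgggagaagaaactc
MZB1: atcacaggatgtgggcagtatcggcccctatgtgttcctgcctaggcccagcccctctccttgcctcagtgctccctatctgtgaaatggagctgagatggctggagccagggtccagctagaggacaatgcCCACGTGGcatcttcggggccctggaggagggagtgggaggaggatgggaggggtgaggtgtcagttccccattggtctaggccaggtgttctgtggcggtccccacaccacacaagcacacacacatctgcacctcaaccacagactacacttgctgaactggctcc

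The ACGTG core stood in promoters of PRDM1, XBP1, FKBP11 and MZB1, that is in 4 of 7 members. Counted by promoter, it was in 5 of the 11 member promoters and in 21.4% of all 35116 promoters of this length. In MZB1 it lies in the run CCACGTGG, where matches on both strands overlap with CCACG on both strands, and in FKBP11 in CACGTGG, just after the start site. The shorter CCACG was found in 8 of 11 member promoters, of 6 members, and in 38.1% of all promoters. The ETS-IRF composite was found in CD38 alone, 1 of the 11 member promoters, as GGAAGGGAAA starting 43 bases before the start site, and in 2.82% of all promoters. The PRDM1 core was found in 4 of 11 member promoters, of IRF4, SDC1 and FKBP11, and in 22% of all promoters. The interferon-stimulated response element was found in none of the 11, against 3.57% of all promoters. A match describes letters in the window and is not a binding site.

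The first comparison asked how the level of each gene differed between the lines. XBP1 and TNFRSF17 were lower in BC1 than in both other lines, and CD38 and ELL2 were higher there. The other 6 genes did not pass. The test was the moderated F test of limma over both line terms, with agent in the fit and Benjamini-Hochberg adjustment over all features at 0.05. Of the 10 genes 4 passed, against 20.3% of all 14627 features, and 29.6% of features passed in the table as deposited. In limma's pairwise contrasts each of the 4 differed between BC1 and BCP1, as 22.4% of features did, and between BC1 and BCBL1, as 24.7% did, and none of the 10 genes differed between BCP1 and BCBL1, where 0% of all features did. At a raw p under 0.05 no member differed there either.

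**Figure D1:**
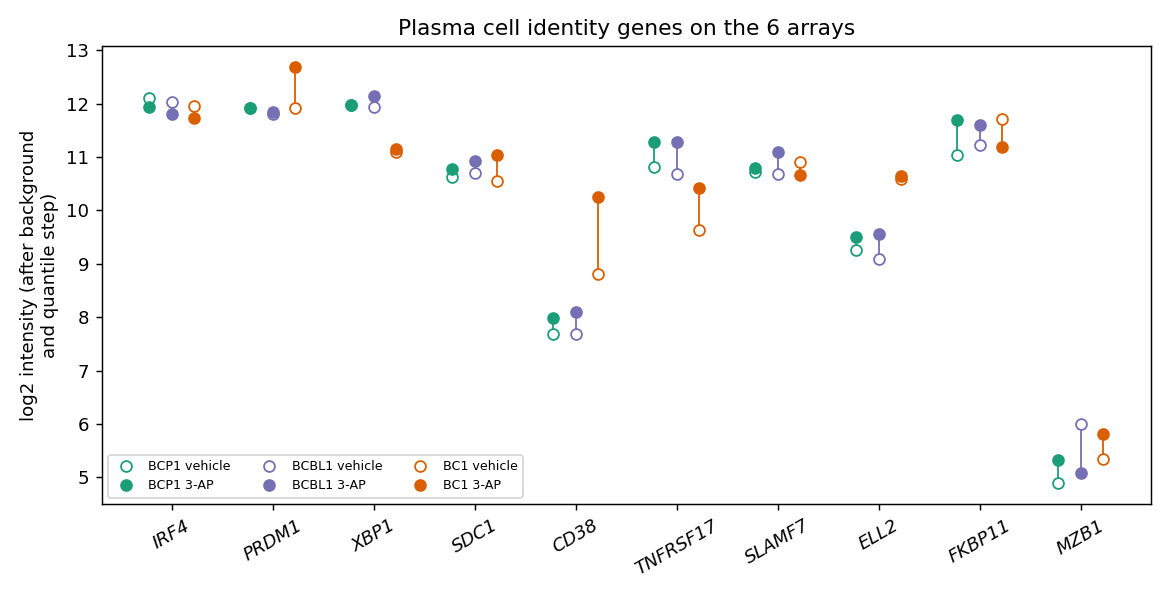
Log2 intensity of the 10 genes (vertical axis) on each of the 6 arrays, with open points for vehicle, filled points for 3-AP and a line joining the pair of a cell line. XBP1 and TNFRSF17 of BC1 lie below all 4 arrays of the other lines, CD38 and ELL2 above them, and MZB1 lies near background.

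XBP1 encodes the transcription factor that drives the secretory machinery. Its log2 level was 11.98 with vehicle and 11.97 with 3-AP in BCP1, 11.94 and 12.14 in BCBL1, and 11.10 and 11.14 in BC1. Both BC1 arrays lay below the other 4. The difference of BC1 from the mean of the other lines was -0.89 ± 0.13 (SE, 6 arrays), which is 1.85-fold lower, with a limma F test adjusted p = 0.0214. The second XBP1 probe gave levels of 11.95 and 11.95 in BCP1, 11.90 and 12.00 in BCBL1, and 10.97 and 11.11 in BC1. Without BCP1 the difference was -0.92 (limma adjusted p = 0.0317).

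TNFRSF17, the BCMA gene, had log2 levels of 10.81 with vehicle and 11.28 with 3-AP in BCP1, 10.68 and 11.29 in BCBL1, and 9.63 and 10.41 in BC1. The BC1 arrays again lay below the other 4, although the 3-AP array of BC1 came near the vehicle array of BCBL1. The difference was -0.99 ± 0.14 (SE), 1.99-fold lower in BC1 (limma F test adjusted p = 0.0175). Without BCP1 it was -0.96 (limma adjusted p = 0.0278).

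CD38 had log2 levels of 7.68 with vehicle and 7.98 with 3-AP in BCP1, 7.68 and 8.09 in BCBL1, and 8.82 and 10.25 in BC1. BC1 was above the other lines on both arrays, and its own arrays were 1.44 log2 units apart. The difference was 1.68 ± 0.27 (SE), 3.20-fold higher in BC1 (limma F test adjusted p = 0.0273), and 2.46-fold in the table as deposited, without background subtraction. Without BCP1 it was 1.65 (limma adjusted p = 0.0178). With no filter on dim probes the call was lost (adjusted p = 0.0564), and over 10 alternatives the limma adjusted p ran from 0.00252 to that value.

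ELL2 had log2 levels of 9.26 with vehicle and 9.50 with 3-AP in BCP1, 9.09 and 9.57 in BCBL1, and 10.59 and 10.65 in BC1. All of BC1 stood above all of the other lines by more than the change within any line. The difference was 1.27 ± 0.15 (SE), 2.41-fold higher in BC1 (limma F test adjusted p = 0.0107), and 1.29 without BCP1 (limma adjusted p = 0.0151).

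PRDM1 did not pass the F test (limma adjusted p = 0.324), although both of its BC1 arrays also lay above the other 4 after processing. As deposited, its BC1 vehicle array (4078) lay just below that of BCP1 (4097). In all, 5 members had BC1 arrays outside the range of the other lines, 3 above (PRDM1, CD38, ELL2) and 2 below (XBP1, TNFRSF17). Over all features 23.2% lay above and 21.7% below. For the other 5 genes the groups overlapped. Their differences of BC1 from the mean of the other lines had 95% intervals of -0.44 to 0.19 for IRF4, -0.32 to 0.40 for SDC1, -0.48 to 0.41 for SLAMF7, -0.61 to 0.73 for FKBP11 and -0.59 to 1.07 for MZB1. A difference of 1 log2 unit thus lay outside the interval for IRF4, SDC1, SLAMF7 and FKBP11, and inside it for MZB1.

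**Figure D2:**
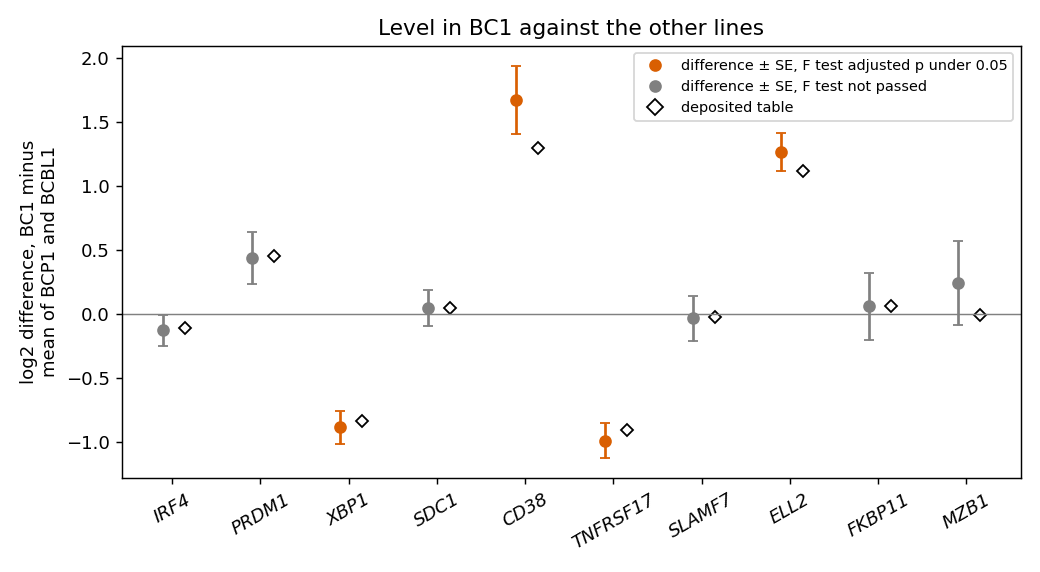
Log2 difference of BC1 from the mean of BCP1 and BCBL1 for each gene (vertical axis), with SE bars from the limma fit and open diamonds for the table as deposited. CD38 at 1.68 and ELL2 at 1.27 lie above 0, and XBP1 at -0.89 and TNFRSF17 at -0.99 below it.

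The second comparison asked how each gene differed between 3-AP and vehicle within lines, in a limma fit with cell line as a block. None of the 10 genes passed at an adjusted p of 0.05, where 0.342% of all features did. At a raw p under 0.05 there were 2, TNFRSF17 and CD38, against 24% of all features, or 11.8% in their direction and 12.2% in the other. Values were higher with 3-AP in all 3 lines for 4 genes (SDC1, CD38, TNFRSF17, ELL2) and lower in all 3 for 1 (IRF4), against 24.3% and 25.1% of features. The median log2 fold change of the 10 genes was 0.21, and -0.01 over all features.

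IRF4, the factor on which plasma cell and primary effusion lymphoma cell survival is known to depend, had log2 levels of 12.10 with vehicle and 11.95 with 3-AP in BCP1, 12.03 and 11.81 in BCBL1, and 11.96 and 11.73 in BC1. All 3 treated arrays lay below all 3 vehicle arrays, a separation seen in 10% of features in that direction. The log2 fold change was -0.20 ± 0.12 (SE, n = 3 pairs), limma adjusted p = 0.346, with a 95% interval of -0.50 to 0.10. A fall of 1 log2 unit lay outside that interval.

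PRDM1 encodes Blimp-1, which represses B cell genes. Its log2 level was 11.92 with vehicle and 11.91 with 3-AP in BCP1, 11.81 and 11.84 in BCBL1, and 11.93 and 12.69 in BC1. The BC1 array with 3-AP was the highest of the 6, and the others lay between 11.81 and 11.93. In the intensities as deposited, PRDM1 went from 4078 to 6727 in BC1, from 4097 to 4032 in BCP1 and from 3576 to 3631 in BCBL1. The mean log2 fold change was 0.26 ± 0.19 (SE), limma adjusted p = 0.448, and 0.01 without BC1.

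PRDM1 has 4 probes, all kept, and in BC1 all 4 had higher values with 3-AP. Their log2 fold changes in BC1 were 0.76, 0.63, 0.70 and 0.56. In BCP1 they were -0.00, -0.73, 0.89 and -0.30, and in BCBL1 0.03, -0.61, -0.14 and 0.08. The probes therefore had 1 direction in BC1 and mixed directions in the other lines. The second probe was detected on 3 of 6 arrays, not on BC1 with vehicle, and its values lie near background. The third probe, which gave the 0.89 in BCP1, was detected on all 6 arrays but was also dim. Its intensities as deposited were 171 to 222, where the median probe had 141 to 152.

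**Figure D3:**
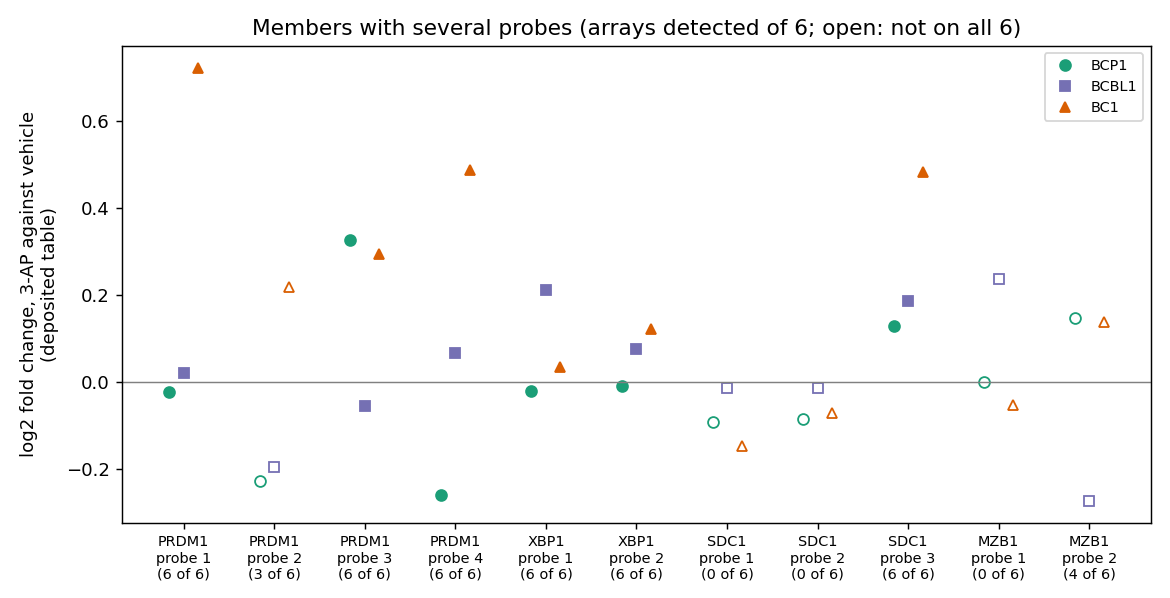
Log2 fold change of 3-AP against vehicle in the table as deposited (vertical axis) for each probe of the members with several probes, by line, with filled symbols where the probe was detected on all 6 arrays. The 4 PRDM1 probes are above 0 in BC1, and the XBP1 probes lie between -0.02 and 0.21.

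XBP1 had a log2 fold change of 0.08 ± 0.12 (SE), limma adjusted p = 0.728, with a 95% interval of -0.23 to 0.39. The second XBP1 probe gave a mean of 0.07. The log2 fold change of ELL2 was 0.05 in BC1, and the other lines had 0.23 (BCP1) and 0.48 (BCBL1), with a mean of 0.26 ± 0.14 (SE), limma adjusted p = 0.322, and 0.14 without BCBL1. The line with the highest ELL2 level thus had the smallest value.

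Among the surface markers TNFRSF17 came nearest to the threshold. In the intensities as deposited it went from 1991 to 2700 in BCP1, from 1690 to 2538 in BCBL1 and from 919 to 1481 in BC1. Each treated array was higher than its own vehicle array, by 1.39-fold, 1.53-fold and 1.72-fold after processing, while the groups as a whole overlapped because of the lower level in BC1. The mean log2 fold change was 0.62 ± 0.13 (SE, n = 3 pairs), which is 1.54-fold, limma adjusted p = 0.0941, with a 95% interval of 0.30 to 0.95. In the table as deposited it was 0.57 ± 0.09 (SE) and passed (limma adjusted p = 0.0160), where 7.86% of features passed, 4.1% higher and 3.77% lower. It was the only member that passed there. Over 13 alternatives its limma adjusted p ran from 0.0150 to 0.699, and it passed in 4.

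CD38 went from 331 to 381 in BCP1, from 328 to 392 in BCBL1 and from 573 to 1346 in BC1 in the intensities as deposited. The change in BC1 was 2.71-fold after processing and 2.35-fold as deposited, and it was the only change of at least 2-fold among the 10 genes in any line. At least 2-fold changes were found in 7.58% of features in BC1, 3.62% in BCBL1 and 3.11% in BCP1. The mean log2 fold change was 0.72 ± 0.25 (SE), limma adjusted p = 0.180, and 0.36 without BC1.

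SDC1 had log2 levels of 10.63 with vehicle and 10.78 with 3-AP in BCP1, 10.71 and 10.92 in BCBL1, and 10.56 and 11.05 in BC1. All treated arrays lay above all vehicle arrays, as for 8.07% of features. The log2 fold change was 0.28 ± 0.13 (SE), limma adjusted p = 0.273, and 0.18 without BC1. This rests on 1 of 3 SDC1 probes, since the other two were detected on no array.

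SLAMF7 had log2 levels of 10.72 with vehicle and 10.80 with 3-AP in BCP1, 10.69 and 11.10 in BCBL1, and 10.92 and 10.67 in BC1. BC1 had the lower value with 3-AP and the other lines the higher one. The mean log2 fold change was 0.08 ± 0.17 (SE), limma adjusted p = 0.798, and it was -0.09 without BCBL1.

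Of the secretory members, FKBP11 had log2 levels of 11.05 with vehicle and 11.69 with 3-AP in BCP1, 11.22 and 11.60 in BCBL1, and 11.71 and 11.19 in BC1. It was 1.56-fold and 1.30-fold higher with 3-AP in BCP1 and BCBL1 and 1.43-fold lower in BC1. The mean log2 fold change of 0.17 ± 0.25 (SE), limma adjusted p = 0.707, therefore averages opposite directions, and it was -0.07 without BCP1 and 0.51 without BC1.

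MZB1 was dim. Its intensities as deposited were 145 and 161 in BCP1, 192 and 159 in BCBL1, and 155 and 170 in BC1, vehicle first, where the median probe had 141 to 152. It was above background on 4 of 6 arrays, all but BCP1 with vehicle and BCBL1 with 3-AP. The log2 fold changes were 0.44, -0.92 and 0.47 after background subtraction and 0.15, -0.27 and 0.14 as deposited, and the 95% interval of the mean ran from -0.78 to 0.78. The data thus bound the response of MZB1 only loosely, and its second probe was detected on no array.

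**Figure D4:**
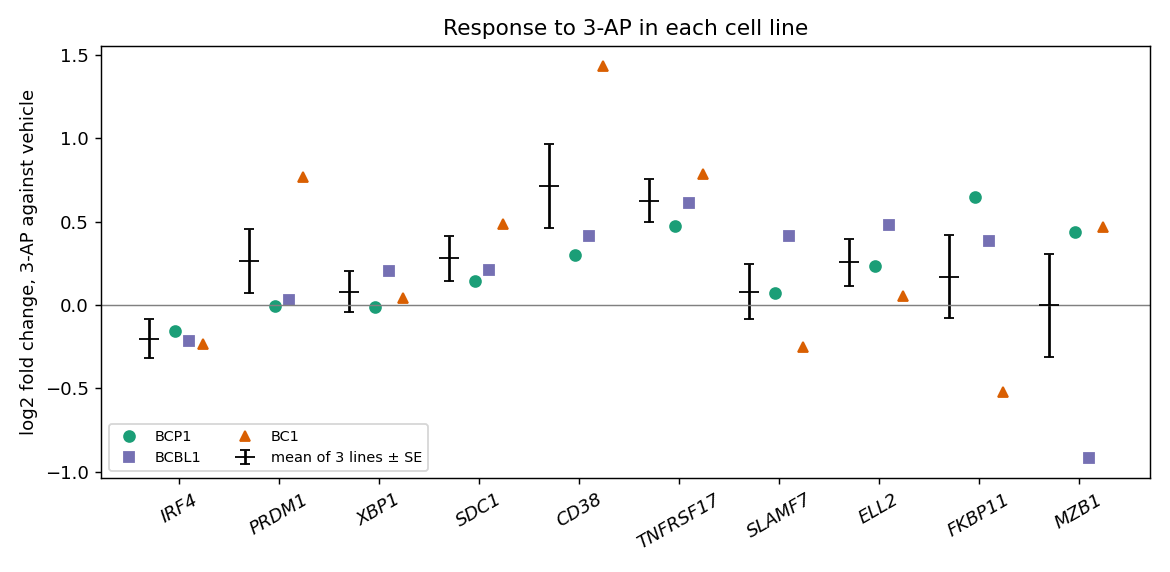
Log2 fold change of 3-AP against vehicle (vertical axis) for the 10 genes in each line, with the mean of the 3 lines and its SE in black. CD38 and PRDM1 have their highest values in BC1, FKBP11 and SLAMF7 are below 0 in BC1 and above 0 in the other lines, and TNFRSF17 is above 0 in all 3.

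Whether a line responded differently was tested with an agent by line term, each line against the mean of the other lines, in limma fits with 1 residual degree of freedom. No member passed at an adjusted p of 0.05, and 0% of all features did for any line. For BC1, 3 members had a raw p under 0.05, against 17.8% of features. Their differences were 0.75 ± 0.19 (SE) for PRDM1 (limma adjusted p = 0.237), 1.08 ± 0.20 for CD38 (0.231) and -1.03 ± 0.22 for FKBP11 (0.231). These 3 passed in the table as deposited, as did SLAMF7 (limma adjusted p = 0.0211), where 15.4% of all features passed. With 1 residual degree of freedom, the SE of these terms draws on the spread shared across features by limma. For BCBL1 the only member with a raw p under 0.05 was MZB1, at -1.38 ± 0.38 (SE), against 3.01% of features, and for BCP1 there was none.

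Genes around the members were read from 4 lists. Of 14 measured other plasma cell genes none passed for 3-AP, and their median log2 fold change was 0.05. The 3 with the smallest raw p were the chemokine receptor gene CXCR4 at -0.74 ± 0.16 (SE), limma adjusted p = 0.103, the translocon-associated gene SSR4 at 0.28 ± 0.12, and the survival kinase gene PIM2 at 0.48 ± 0.25. CXCR4 had negative values in all 3 lines, and PIM2 was at 1.15 in BC1 and -0.11 in BCP1. Between lines 4 of 14 passed the F test, or 28.6%, against 20.3% of all features. GPRC5D and IL6R among them were kept by the filter only through the arrays of BCP1 and BCBL1. Their tests are therefore no support for a line difference, and their values are given as description. CXCR4 was 7.11-fold higher in BC1, with a log2 difference of 2.83 and of 1.98 as deposited, and the signal peptidase gene SEC11C 1.81-fold higher. The orphan receptor gene GPRC5D, a surface marker of plasma cells, was not above background on either BC1 array and was at least 18.4-fold higher in BCP1 and at least 19.8-fold in BCBL1, against 6.29-fold and 6.30-fold as deposited. The interleukin-6 receptor gene IL6R was likewise not above background in BC1 and at least 3.47-fold higher in BCP1 and 3.79-fold in BCBL1, against 1.79-fold and 1.89-fold as deposited. Without BCP1 the log2 differences of BC1 were 3.03 for CXCR4, 0.89 for SEC11C, -4.82 for GPRC5D and -2.21 for IL6R. The bounds set the brighter line against the higher of the dim probe's own signal and the lowest detected signal of each array.

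Among 13 measured regulators of plasma cell fate none passed for 3-AP, with a median of -0.07. KDM1A, a histone demethylase gene, had -0.56 ± 0.13 (SE), KLF2 -0.51 ± 0.12 and TCF3, the E2A gene, -0.55 ± 0.14, with limma adjusted p-values of 0.107, 0.110 and 0.125. Each of these was negative in all 3 lines. Between lines 3 of 13 (23.1%) passed, near the 20.3% of all features. TCF4, which encodes an E protein, was 2.68-fold higher in BC1 and ID2, an inhibitor of E proteins, 2.54-fold higher (a call lost with no filter on dim probes, limma adjusted p = 0.0629), while the transcription factor gene KLF2 was 4.17-fold lower. Without BCP1 the log2 differences were 1.39 for TCF4, 1.53 for ID2 and -2.21 for KLF2.

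Of 9 measured B cell genes that plasma cells repress, 1 fell with 3-AP, MYC, which PRDM1 is known to repress. Its log2 fold change was -1.37 ± 0.14 (SE), limma adjusted p = 0.0476, and lower features made up 0.0957% of all. It was past the threshold in 6 of 13 alternatives, with limma adjusted p-values from 0.000630 to 0.183 and log2 fold changes from -1.43 to -1.25. The call was lost without any 1 pair (adjusted p = 0.151 without BCP1, 0.0755 without BCBL1 and 0.0896 without BC1) and with no replicate block (adjusted p = 0.125). The log2 fold changes of MYC were -1.27 in BCP1, -1.24 in BCBL1 and -1.60 in BC1. Those of PRDM1 were -0.00, 0.03 and 0.76 in the same order. MYC is also a proliferation gene, and the cause of its fall was not tested. The median of the 9 genes was 0.37, or 0.24 in the table as deposited, and -0.01 over all features after processing. It includes CD79B and genes detected on 3 or 4 of 6 arrays (ID3, IRF8 and CD79A). It is therefore no support for a rise of these genes. CD79B, a B cell receptor subunit gene, was dim. Its highest probe was above background on the 3 treated arrays and on no vehicle array, so it passed the filter only through the treated group and its test is not reported. A second kept probe was above background on 4 arrays, both BC1 arrays among them, and its log2 fold change was -0.45 for BC1, against 0.86 for BCP1 and 0.77 for BCBL1. CD74, the invariant chain gene, was at 0.56 ± 0.12 (SE), limma adjusted p = 0.0958. Between lines 2 of 9 (22.2%) passed, near the 20.3% of all features. CD74 was 2.13-fold higher in BC1. ID3 was not above background in BCBL1 and at least 24.5-fold higher in BC1 than there, against 6.91-fold as deposited. ID3 was kept by the filter through both BC1 arrays and the BCP1 array with 3-AP. Its test is therefore no support for a line difference. Without BCP1 the log2 differences were 1.37 for CD74 and 4.86 for ID3.

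Of 21 measured secretory genes that depend on XBP1, none passed for 3-AP. Their median log2 fold change was 0.10, with 15 positive and 6 negative. CRELD2, an endoplasmic reticulum stress gene, had 0.81 ± 0.13 (SE), limma adjusted p = 0.0731, and the chaperone cofactor gene DNAJB9 0.84 ± 0.16, adjusted p = 0.0872. SYVN1, a ubiquitin ligase gene of protein degradation in the endoplasmic reticulum, had 0.51 ± 0.13, limma adjusted p = 0.129. CRELD2 and DNAJB9 each passed in 5 of 13 alternatives, with limma adjusted p-values from 0.0102 to 0.280 and from 0.0142 to 0.276. These 3, named for the smallest raw p of the list, had positive values in every line, as did 24.3% of all features. XBP1 itself was at 0.08, and its relation to these genes was not tested. Between lines 4 of 21 (19%) passed, against 20.3% of all features. All 4 were higher in BC1, as were 1320 of the 2962 features that passed. They were the chaperone gene HSPA13 at 1.73-fold, SSR1 of the translocon-associated complex at 1.71-fold, the vesicle coat gene SEC24D at 1.66-fold and the signal recognition particle gene SRP54 at 1.55-fold. Without BCP1 the calls of SSR1, SRP54 and SEC24D were lost (limma adjusted p = 0.0502, 0.0631 and 0.0635), and without BCBL1 those of SRP54 and HSPA13 (0.127 and 0.0759). The median difference of the 21 genes was -0.01, and 0.04 over all features.

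**Figure D5:**
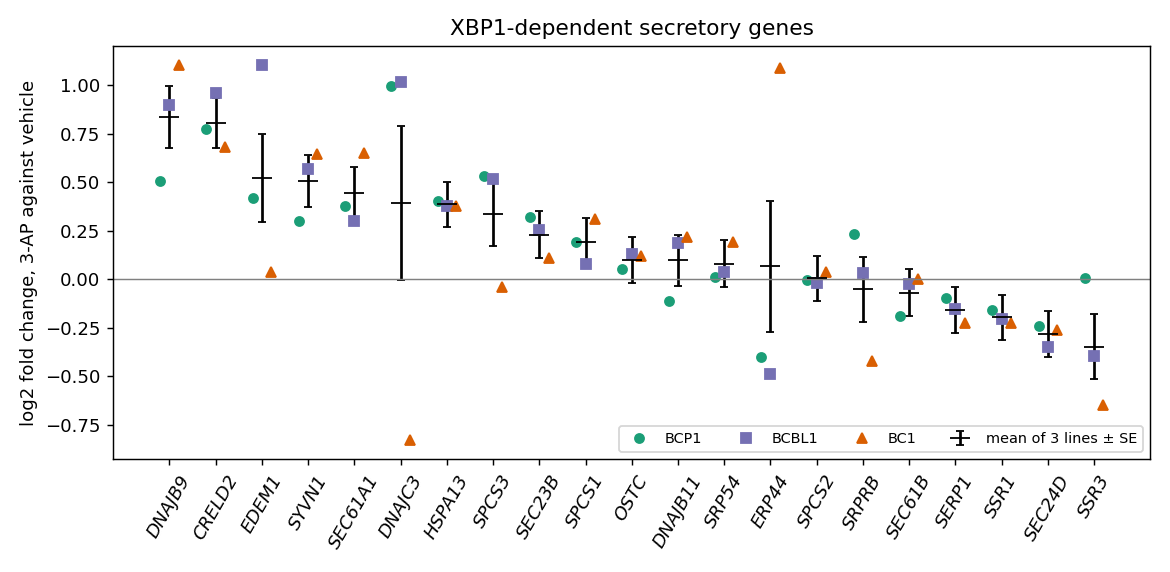
Log2 fold change of 3-AP against vehicle (vertical axis) of the 21 measured XBP1-dependent secretory genes, by line, with the mean of the 3 lines and its SE in black. CRELD2 at 0.81 and DNAJB9 at 0.84 are the highest means. DNAJC3 and ERP44, both dim and detected on 5 of 6 arrays, have opposite signs in BC1 and the other lines, as do brighter genes such as SRPRB.

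Some markers of other cells were measured as well. Of the T and NK cell markers only CD2 and CD7 were measured, both above background in BCP1 and BCBL1 and on neither BC1 array. They were thus kept by the filter only through the lines where they are high, and no test of them is given. CD7 had mean log2 levels of 6.25, 6.86 and 4.67 in BCP1, BCBL1 and BC1, and CD2 6.15, 6.75 and 5.05. Their part in the line differences was not tested. The surrogate light chain gene IGLL1, named after its values were seen, was the 1 immunoglobulin list member on the array of 8 and was at least 117-fold higher in BCP1 than in BC1 (36.0-fold as deposited). That rests on 1 of its 3 probes, and the other two were detected on no array.

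The genes whose log2 pattern over the 6 arrays was most like that of each transcription factor were found by the root mean square distance after centring, among genes at least as variable. For IRF4 they were TTC4, MTX2 and PROSER1, at 0.03 log2 units each. For PRDM1 they were LASP1 at 0.05, FNIP1 at 0.06 and C18orf32 at 0.07. For XBP1 they were COPS5 at 0.04, ZNF562 at 0.05 and SNRPN at 0.06. With 9713 candidates for IRF4, 5331 for PRDM1 and 3134 for XBP1 and 6 arrays in 2 similar lines and 1 different one, close matches are a description only.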

How the data were processed

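The authors deposited a processed table of linear intensity values for the 6 arrays. A further deposited table, headed as non-normalized, pairs each intensity column with detection p-values. RNA was labelled with a kit for Illumina bead arrays, per the labels' protocols. How the arrays were scanned and normalized is not given in the sources used here. Values of the deposited intensity table look quantile normalized within each line. In the non-normalized table the BCP1 columns held the processed BCBL1 values at 100% of probes and were not used, so all 6 arrays were taken from the processed table.

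Background was subtracted in limma 3.58.1 (R 4.3.3) with nec at an offset of 16. It used the deposited detection p-values, which for BCP1 were replaced, by rank of signal, with the mean profile of the other 4 arrays. Signals were then quantile normalized and log2 transformed. Of 47323 probes, 13 with a signal of 0 were dropped, and 17987 detected on at least 3 arrays were kept (p under 0.05, or for BCP1 the top 38.12% of signals). The kept probe with the highest mean stood for a gene, giving 14627 features. Names came from the platform annotation, where 30113 probes had 1 symbol, 8 several and 17202 none. RefSeq gene IDs updated them.

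The model held agent and, as a block, the line (lmFit and eBayes, 2 residual and 3.20 prior degrees of freedom), with Benjamini-Hochberg adjustment over all features. The pairing comes from the cell line in the labels. Vehicle and treated deviations of a line correlated at 0.86 for BC1, 0.71 for BCP1 and 0.76 for BCBL1, but also at 0.58 and 0.59 crossed between BCP1 and BCBL1. Nothing says that cultures were repeated, so p-values measure only the spread between these samples. The fit was tested on simulated data. The members and lists were chosen with earlier results of these data known. The named genes were the 10 members, list genes past a threshold, at least the 3 of smallest raw p in each of 4 lists, and the 3 closest patterns per transcription factor. Alternatives to these steps are described in the closing section.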

Additional observations from a re-analysis of the deposited data

How the results depend on the processing

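Of 228 values of single members under the alternatives (3-AP against vehicle, and BC1 against the other lines), 213 kept their direction and their side of the threshold, as did 232 of 282 values of named list genes. The 4 line differences passed in every alternative that holds BC1 except CD38 with no filter on dim probes. For 3-AP against vehicle the number of features past the threshold was 50. It was 1150 in the table as deposited, 650 with a background offset of 50, 654 with a strict filter, 1252 with a variance trend, 10 with no filter, 447 with cell line as a random replicate block, 11 in the non-normalized signals of BCBL1 and BC1, and 3 to 36 without 1 pair. With no replicate block, which drops the pairing, 10 passed, and TNFRSF17 had an adjusted p of 0.699 there. TNFRSF17 was the 1 member past the threshold in the table as deposited, with the offset of 50, with the strict filter and with the variance trend. Between lines, 0 to 2852 features and 0 to 4 members passed without 1 pair. The lowest values are those without BC1, which leave only BCP1 and BCBL1 to compare. The response of BC1 against the other lines passed for 0 features, and for 2252 in the table as deposited, 131 with the offset of 50, 758 with the strict filter and 2235 with the variance trend. The response of BCBL1 passed for 1 with the offset of 50. The cause of these shifts was not tested.

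Values near 0 changed sign. For 3-AP, MZB1 was at 0.00503 in the table as deposited and 0.0142 without the quantile step, and FKBP11 at -0.0637 in the non-normalized signals. Without 1 pair, MZB1 ran from -0.240 to 0.455, SLAMF7 from -0.0877 to 0.244 and FKBP11 from -0.0695 to 0.514. For BC1 minus the other lines, MZB1 was at -0.00903 as deposited and SDC1 at -0.0157 in the non-normalized signals, and without 1 pair SDC1 ran from -0.0104 to 0.0993 and SLAMF7 from -0.103 to 0.0336. For the response of BCP1, SLAMF7 was at 0.00946 as deposited and 0.00961 without the quantile step. For that of BCBL1, TNFRSF17 was at 0.0223 and 0.00866 in these settings. For that of BC1, XBP1 was at 0.0190 with the mean of the kept probes. MZB1 is limited by its signal, which lies near background.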

Other observations

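Some regulators and survival genes of the lists had their largest values in BC1, and they were named after their values were seen. BACH2, which encodes a repressor of PRDM1, had log2 levels, at its highest probe, of 7.26 with vehicle and 7.25 with 3-AP in BCP1, and 7.60 and 7.10 in BCBL1. In BC1 this probe was at 4.95 with vehicle, not above background, and 7.42 with 3-AP. A second probe, above background on all 6 arrays, was at 5.49 and 6.76 there, a log2 fold change of 1.27. The mean log2 fold change was 0.65 ± 0.58 (SE), limma adjusted p = 0.530. The survival gene MCL1 had log2 fold changes of 0.91 in BC1 and 0.08 in each other line, and the B cell transcription factor gene MEF2C 1.02 in BC1, -0.19 in BCP1 and -0.02 in BCBL1. Neither passed for 3-AP (limma adjusted p = 0.347 and 0.564), and no feature passed the test of the response of BC1 against the other lines.

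The folding enzyme gene TXNDC5 had the signs of FKBP11, at 0.50 in BCP1, 0.31 in BCBL1 and -0.55 in BC1 (limma adjusted p = 0.844 for the mean). No explanation was tested.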
